A study of Mus musculus with 20 samples.

Results

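Cadps, Car8, Nupr1, Plxnd1, Apod and Cxadr are 6 genes whose signal in the mouse prostate was higher after castration and lower again after testosterone. They were chosen by their measured signals in earlier results of the same arrays and listed by name, with no numeric threshold, as 6 of the 8251 genes with a single symbol on the array. Every probe set with one of these symbols was taken, which gave 7 of 12422 probe sets, 2 of them for Cadps. The differences between sham, castrated and testosterone-treated groups had chosen the genes, so those differences are given as a description, with no test. Only 4 of the 6, Cadps, Car8, Apod and Cxadr, had the full course of an early and a late higher signal and, with testosterone, a range that overlapped that of sham. Plxnd1 stayed above sham under testosterone, and Nupr1 was not higher at 3 days and was lowest under testosterone.

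Whole prostates were taken from C57/B6 mice, which were 10 to 12 weeks old, and total RNA was measured on 20 Affymetrix arrays in 4 groups of 5 mice. These were sham-treated mice (labelled N3), mice 3 days after castration (C3), mice 14 days after castration (C14), and mice that carried a 15 mg testosterone pellet for 3 days after 14 days of castration (C14+T3). The testosterone group was thus castrated as well, and a group castrated as long without a pellet was not analysed here. The array titles carry running numbers that follow the groups, so a processing batch and the treatment cannot be told apart.

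The prostate epithelium depends on androgen from the testes. Castration removes that androgen, secretory cells shrink and die over days, and a testosterone pellet makes the regressed gland grow back. Genes that androgen holds down, directly or through the state of the gland, have their signal raised by castration and lowered by testosterone.

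The 6 genes belong to separate pathways. CADPS readies dense-core vesicles for calcium-triggered fusion in neurons and endocrine cells. APOD is a secreted lipocalin that carries small lipids such as arachidonic acid. CXADR, the receptor of coxsackieviruses and adenoviruses, is an adhesion molecule of epithelial junctions, and PLXND1 is a cell-surface receptor for semaphorins with a known role in blood vessels. CAR8 is a carbonic anhydrase relative without enzyme activity that binds the inositol trisphosphate receptor. NUPR1 is a small nuclear protein induced by stress.

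Array medians lay between 154 and 225 signal units, and 4 arrays stood apart by a high log2 ratio of the 3′ to the 5′ control signal of Gapdh. These were replicates 2 and 5 of the testosterone group (4.50 and 3.90) and, at 14 days of castration, replicates 4 and 5 (2.05 and 1.82), against -0.53 to -0.08 on the other 16. Of the markers of prostate luminal epithelium, 4 of 5 were on the array, and their summed signal was 24345 to 32832 in sham, 28400 to 31320 at 3 days, 18469 to 26061 at 14 days and 21233 to 25608 with testosterone. The sum joined markers that moved in opposite directions. Means in sham, at 14 days and with testosterone were 16904, 4903 and 10013 for Pbsn and 3192, 1812 and 2804 for Hoxb13. For Krt8 they were 3605, 7107 and 4823, and for Krt18 7177, 8205 and 6008. In this whole tissue, more cells of a type and more RNA per cell cannot be told apart.

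Summed markers of several other cell types were higher at 14 days of castration than in sham and lower again with testosterone. Those of smooth muscle were lower at 14 days and higher again with testosterone. The summed signal of 2 measured adipocyte markers of 4 lay at 242 to 725 in sham, 288 to 1362 at 3 days, 1253 to 2107 at 14 days and 237 to 543 with testosterone. For 6 of 6 endothelial markers the ranges were 560 to 964, 778 to 1412, 1670 to 2105 and 793 to 1085 in the same order of groups. For 7 of 7 nerve and neuroendocrine markers they were 1520 to 2066, 1669 to 3028, 3102 to 3774 and 2146 to 3088. For 6 of 6 macrophage markers they were 715 to 933, 1669 to 2031, 2993 to 4998 and 1430 to 2397. Glial markers, 3 of 5 measured, summed to 769 to 1012, 1203 to 1419, 1412 to 1762 and 679.5 to 778, and 6 of 6 fibroblast markers to 13046 to 14329, 17534 to 21013, 18180 to 24964 and 17505 to 23481. The fibroblast sums at 14 days and with testosterone overlapped. Col1a1, Col1a2 and Col3a1 had higher means with testosterone than at 14 days, and Dcn, Lum and Pdgfra lower means. Basal epithelial markers, 4 of 4, summed to 251 to 412, 315 to 440, 392 to 655 and 340 to 373. Of these only Trp63 passed the signal filter described below, while Krt5, Krt14 and Krt15 did not. Trp63 alone had means of 250, 288, 448 and 313 in the same order of groups, so the basal sums mostly reflect this 1 gene. Sums of 5 of 5 smooth muscle markers went the other way, at 23120 to 25303, 17681 to 24131, 15242 to 19349 and 24661 to 29050. Myh11, Tagln, Cnn1 and Des had lower means at 14 days than in sham. Acta2 did not, with means of 4999 in sham, 5476 at 14 days and 8124 with testosterone. With testosterone the nerve, macrophage and fibroblast sums still lay wholly above those of sham. The nerve sum joined markers of different courses. Tubb3 had means of 1168 in sham, 1572 at 14 days and 1921 with testosterone. In these groups Uchl1 had means of 256, 938 and 393, Snap25 of 40.6, 340 and 50.1, and Prph of 76.2, 452 and 85.1. The adipocyte, endothelial, nerve, macrophage, glial and basal sums were lower with testosterone than at 14 days on every array, none of these markers was at 0 on any array, and their part in the signals of the 6 genes was not tested.

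Log2 changes below were taken after adding 12.7 (the 10th percentile of the signals) to every value, and come from 1 limma model over all 20 arrays. All 7 probe sets were among the 6913 that exceeded 190.8, the median signal, on 5 or more arrays. Cadps, Plxnd1 and Cxadr had no sham array above 190.8, Car8 had 2, and these 4 genes passed through the castrated groups. Between castration for 14 days and sham, the 5 arrays of the first group lay wholly above the 5 of the second for 5 of the 6 genes, all but Nupr1, and for 19.4% of all probe sets tested. At 3 days against sham this held for the same number of genes, again without Nupr1, and for 8.77% of all probe sets, and at 14 against 3 days for 6 of 6 genes and 16.2%. The contrasts had chosen the genes, so nothing is read from these counts. At 14 days against sham the median log2 change of the 6 genes was 3.06, against 0.01 for all probe sets tested. For testosterone against castration for 14 days the arrays lay wholly lower for 6 of 6 genes and for 18.2% of all probe sets, with a median of -3.22 against -0.10. For testosterone against sham the arrays overlapped for 5 of 6 genes and for 68.6% of all probe sets, and lay wholly higher for 1 gene, Plxnd1, and for 15.4%.

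The full course was shared with many other genes. Of 5372 genes tested, 1113 had all arrays at 14 days of castration above all sham arrays. Of these, 577 also had all testosterone arrays below all arrays at 14 days, and 214 of those had all arrays at 3 days above all sham arrays. In 152 of the 214 the testosterone range overlapped the sham range, and Cadps, Car8, Apod and Cxadr are 4 of these 152. Plxnd1 is among the 214 and not among the 152. The counts rest on shared groups, since sham and the 14-day arrays each enter more than 1 step.

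**Figure D1:**
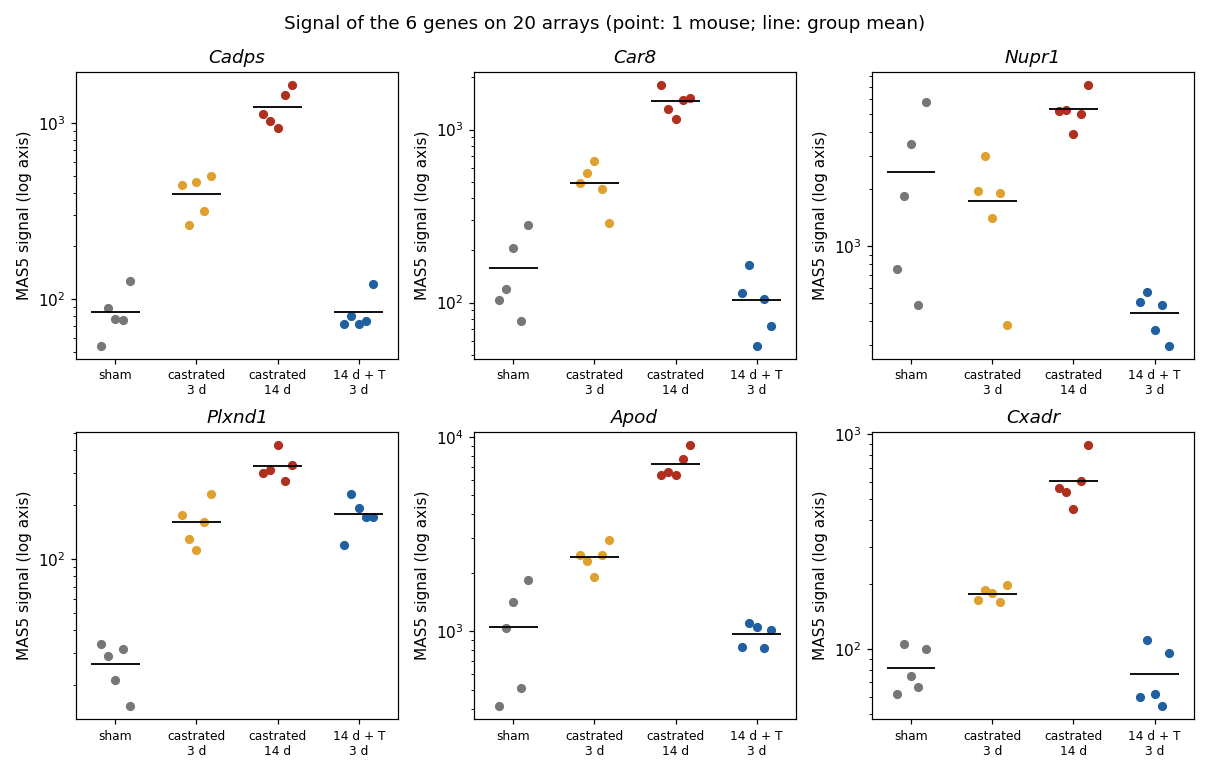
Signal (log axis) of the 6 genes on each array, from left to right in sham mice, after 3 and 14 days of castration, and after testosterone; a point is 1 mouse and a line the mean of 5. The testosterone and sham ranges of Cadps, Car8, Apod and Cxadr overlap, Plxnd1 stays at 120 to 230 against 15.2 to 33.6 in sham, and sham values of Nupr1 spread from 491 to 5788.

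Promoter sequences were available for 4 of the 6 genes and are shown because their signals were raised and lowered by the same procedures. Each window is from RefSeq (build GRCm38.p6), covers 250 bases before to 50 after a transcription start of the gene and is written 5′ to 3′ on the minus strand, on which all 4 genes lie. The windows are chr14:12823030-12823329 for Cadps, chr16:31314759-31315058 for Apod, chr6:115994956-115995255 for Plxnd1 and chr7:126625421-126625720 for Nupr1. For Nupr1 and Apod the start used is the outer end of the annotated gene. For Cadps it lies 260 bases and for Plxnd1 334 bases inside that end, so these windows fall within the gene as annotated. Capitals mark matches to 6 motifs searched on both strands.
Cadps: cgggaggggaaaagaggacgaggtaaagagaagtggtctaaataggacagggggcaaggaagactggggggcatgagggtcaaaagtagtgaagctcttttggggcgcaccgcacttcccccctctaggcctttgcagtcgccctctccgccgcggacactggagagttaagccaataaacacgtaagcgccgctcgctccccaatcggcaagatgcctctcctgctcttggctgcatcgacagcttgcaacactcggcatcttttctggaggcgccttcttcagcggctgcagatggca
Apod: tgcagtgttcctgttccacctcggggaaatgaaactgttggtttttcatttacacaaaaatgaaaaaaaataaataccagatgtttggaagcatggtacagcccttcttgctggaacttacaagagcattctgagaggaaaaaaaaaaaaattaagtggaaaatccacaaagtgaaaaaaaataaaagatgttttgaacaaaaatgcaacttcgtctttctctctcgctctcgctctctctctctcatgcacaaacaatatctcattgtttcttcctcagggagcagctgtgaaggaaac
Plxnd1: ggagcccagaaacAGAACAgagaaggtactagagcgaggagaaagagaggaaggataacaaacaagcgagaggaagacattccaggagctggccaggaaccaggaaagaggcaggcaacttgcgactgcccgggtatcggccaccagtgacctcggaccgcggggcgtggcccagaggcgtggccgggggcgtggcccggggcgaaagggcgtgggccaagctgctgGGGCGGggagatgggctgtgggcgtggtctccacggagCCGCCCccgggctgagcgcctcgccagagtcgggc
Nupr1: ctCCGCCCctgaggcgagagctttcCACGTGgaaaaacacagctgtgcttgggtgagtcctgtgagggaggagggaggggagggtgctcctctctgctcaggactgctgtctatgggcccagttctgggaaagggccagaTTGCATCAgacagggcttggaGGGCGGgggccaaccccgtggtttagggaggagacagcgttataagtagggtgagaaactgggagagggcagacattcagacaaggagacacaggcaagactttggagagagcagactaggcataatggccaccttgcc
The letters AGAACA, a half-site of the androgen receptor, were found in 1 window, that of Plxnd1, 237 bases before the start used and inside the annotated gene, and in 19.0% of 32851 promoter windows of this length. The full element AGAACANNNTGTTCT was in 0 of the 4 windows and in 3 of all windows. The window of Nupr1 held TGATGCAA, the amino acid response element bound by ATF4 and C/EBP factors, on the opposite strand, 110 bases before the start, a motif in 0.895% of all windows. It also held the E-box CACGTG, found in 7.15% of all windows. The GC box GGGCGG was in the windows of Nupr1 and Plxnd1 and in 35.7% of all windows, and the TATA box TATAAA was in none of the 4 and in 13.6% of all. The full element contains the half-site, so those searches overlap. The Cadps and Apod windows, from genes with the full course, held none of the 6 motifs.

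Cadps (chromosome 14, 12372560 to 12823339) was measured by 2 probe sets, whose suffixes mark designs with fewer unique probes or with probes shared within a sequence family, so a related transcript may add to either. The brighter one gave 54.2, 88.5, 77.1, 75.8 and 127 in sham, and 447, 263, 461, 317 and 500 at 3 days of castration. It gave 1123, 1025, 938, 1446 and 1650 at 14 days, and 71.9, 80.1, 71.9, 74.7 and 122 with testosterone. Each castrated group lay wholly above sham, the 14-day arrays wholly above the 3-day arrays, and the testosterone arrays within the sham range. The log2 change was 2.08 ± 0.21 (SE, n = 5 per group) at 3 days and 3.69 ± 0.21 at 14 days against sham, the 14-day value being the 6th highest of 6913 probe sets. Testosterone against castration for 14 days gave -3.68 ± 0.21, the 4th lowest. The difference between testosterone and sham was 0.01, with a 95% interval from -0.43 to 0.45.

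The dimmer probe set of Cadps followed the same order at lower signals. Its means were 51.8 ± 11.8 in sham (SD, n = 5), 153 ± 52.0 at 3 days, 475 ± 154 at 14 days and 43.5 ± 6.72 with testosterone. The log2 changes were smaller than those of the brighter probe set at both times, 1.32 at 3 days and 2.89 at 14 days against sham.

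Apod (chromosome 16, 31296192 to 31314808) had the highest 14-day signal among the 6 probe sets used, a value that cannot be set against other genes because probe sets differ in brightness. Signals were 412, 1045, 1420, 513 and 1839 in sham, and 2474, 2292, 1898, 2477 and 2941 at 3 days. They were 6380, 6617, 6331, 7694 and 9053 at 14 days, and 825, 1096, 1052, 824 and 1014 with testosterone. Sham replicates 1 and 4 were the lowest of all 20 arrays, and the 5 testosterone arrays lay inside the sham range with a far narrower spread (SD 129 with testosterone and 603 in sham). Log2 changes were 1.40 ± 0.29 (SE, n = 5 per group) at 3 days and 2.97 ± 0.29 at 14 days against sham, and -2.89 ± 0.29 for testosterone against 14 days. Testosterone minus sham was 0.09, with a 95% interval from -0.52 to 0.69.

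Cxadr (chromosome 16, 78301226 to 78359785) was the member with the smallest 3-day difference among those whose 3-day arrays lay apart from sham. It measured 62.0, 106, 74.8, 66.5 and 100 in sham, and 170, 188, 182, 165 and 199 at 3 days. It measured 561, 538, 450, 604 and 890 at 14 days, and 59.7, 110, 61.7, 54.3 and 96.3 with testosterone. The 3-day arrays formed the tightest group (coefficient of variation 7.58%), and the testosterone and sham ranges overlapped, with testosterone replicates 1, 3 and 4 below and replicate 2 above every sham array. Log2 changes were 1.06 ± 0.19 (SE, n = 5 per group) at 3 days and 2.70 ± 0.19 at 14 days against sham, and -2.81 ± 0.19 for testosterone against 14 days. Testosterone minus sham was -0.10, with a 95% interval from -0.49 to 0.29. The 2 highest testosterone arrays, replicates 2 and 5, were those with a high Gapdh ratio, and without the 4 such arrays testosterone minus sham was -0.38.

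Plxnd1 (chromosome 6, 115954811 to 115995339) had the largest 3-day difference of the 6 genes on this scale, next to Cadps. Signals were 33.6, 28.8, 21.2, 31.6 and 15.2 in sham, and 174, 128, 112, 159 and 230 at 3 days. They were 301, 312, 428, 270 and 331 at 14 days, and 120, 230, 191, 171 and 171 with testosterone. The testosterone arrays lay wholly below the 14-day arrays and wholly above sham, in about the range of the 3-day arrays. Log2 changes were 2.14 ± 0.19 (SE, n = 5 per group) at 3 days and 3.14 ± 0.19 at 14 days against sham. Testosterone against 14 days gave -0.86 ± 0.19 and testosterone against sham 2.28, with a 95% interval from 1.89 to 2.68. Its sham signals were close to the pseudocount, so the size of every difference from sham depends on it, as described with the scales below.

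Car8 (chromosome 4, 8141493 to 8239041) had the second lowest log2 change of all 6913 probe sets for testosterone against 14 days of castration. It measured 103, 120, 207, 78.0 and 281 in sham, and 492, 562, 662, 453 and 288 at 3 days. It measured 1810, 1314, 1155, 1476 and 1524 at 14 days, and 114, 166, 56.3, 105 and 73.3 with testosterone. The 3-day and sham groups were apart by a narrow margin, as the lowest 3-day array stood at 288 and the highest sham array at 281. Testosterone replicates 3 and 5 lay below all sham arrays, and the other 3 within the sham range. Log2 changes were 1.65 ± 0.29 (SE, n = 5 per group) at 3 days, 3.23 ± 0.29 at 14 days, and -3.73 ± 0.29 for testosterone against 14 days. Testosterone minus sham was -0.50, with a 95% interval from -1.12 to 0.12.

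Nupr1 (chromosome 7, 126623246 to 126625470) did not show the early part of the course. Signals were 759, 1838, 3470, 491 and 5788 in sham, and 1955, 2992, 1416, 1904 and 384 at 3 days. They were 5222, 5258, 3918, 5015 and 7143 at 14 days, and 503, 571, 358, 489 and 297 with testosterone. Sham values overlapped every other group, with sham replicate 5 above 4 of the 5 arrays at 14 days. The log2 change at 3 days against sham was -0.24, with a 95% interval from -1.39 to 0.92, and at 14 days 1.61, with an interval from 0.46 to 2.77. Testosterone against 14 days gave -3.56 ± 0.55 (SE, n = 5 per group), and testosterone against sham -1.94, with a 95% interval from -3.10 to -0.79. Leaving out 1 array at a time put the 3-day change between -0.68 and 0.23, so it had no settled direction.

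**Figure D2:**
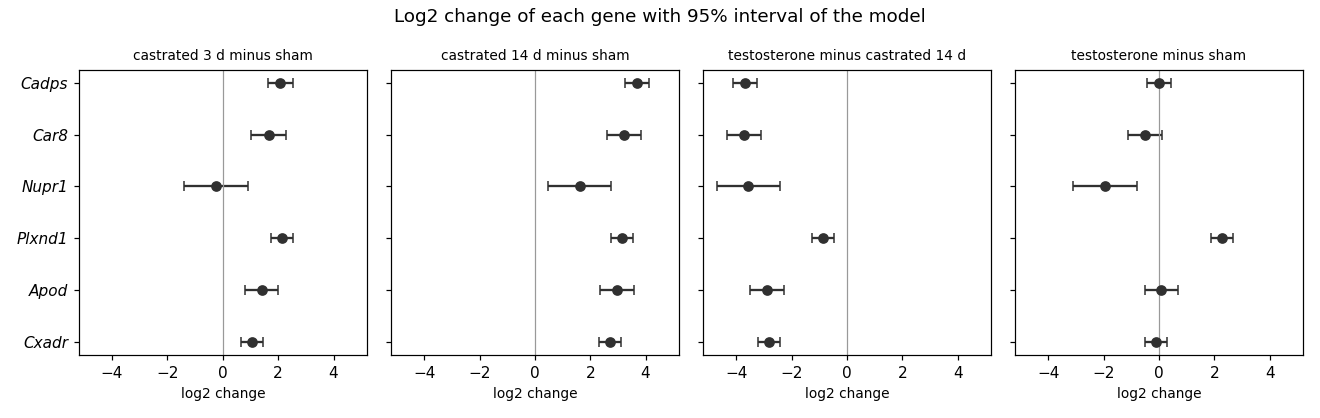
Log2 change of each gene (point) with the 95% interval of the limma model (bar) in 4 contrasts. The testosterone minus sham intervals of Cadps, Car8, Apod and Cxadr span 0, that of Plxnd1 lies from 1.89 to 2.68 and that of Nupr1 from -3.10 to -0.79.

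How much of the 14-day difference was already there at 3 days depended on the scale. On the log2 scale with a pseudocount of 12.7 it was 68.2% for Plxnd1, 56.3% for Cadps, 51.2% for Car8, 47.1% for Apod and 39.0% for Cxadr. On the linear signal the same shares were 44.5%, 27.2%, 25.7%, 22.2% and 18.8%. The order of the 5 genes was the same on both scales, and Nupr1 had negative values on both, -14.6% and -26.0%.

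How much was gone after 3 days of testosterone depended little on the scale for 3 of the genes. Of the 14-day difference, 99.7% was absent in Cadps on the log2 scale with 12.7 and 100.03% on the linear signal. For Apod the values were 97.1% and 101%, and for Cxadr 104% in log2 and 101% in linear signal. Car8 gave 116% and 104%, where more than 100% means a mean below sham. For Nupr1 the shares were 220.4% and 171%. For Plxnd1 they were 27.3% and 50.2%, so its share and that of Nupr1 depended most on the scale.

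The pseudocount set the size of the change for the dim sham signals. With 1, 12.7 and 43.2 (the 25th percentile of all values), always in this order, the 14-day log2 change of Plxnd1 against sham was 3.64, 3.14 and 2.42. For Cadps it was 3.88, 3.69 and 3.32, and for Cxadr 2.87, 2.70 and 2.36. Car8 gave 3.34, 3.23 and 2.98. Apod and Nupr1, whose sham signals lay far above these pseudocounts, gave 2.99, 2.97 and 2.92, and 1.63, 1.61 and 1.59. No direction changed, and the order of the genes did: Plxnd1 stood above Car8 and Apod with 1 and below both with 43.2. The share of the Plxnd1 difference absent with testosterone was 24.8%, 27.3% and 31.6%, so it stayed well short of 100% with each.

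**Figure D3:**
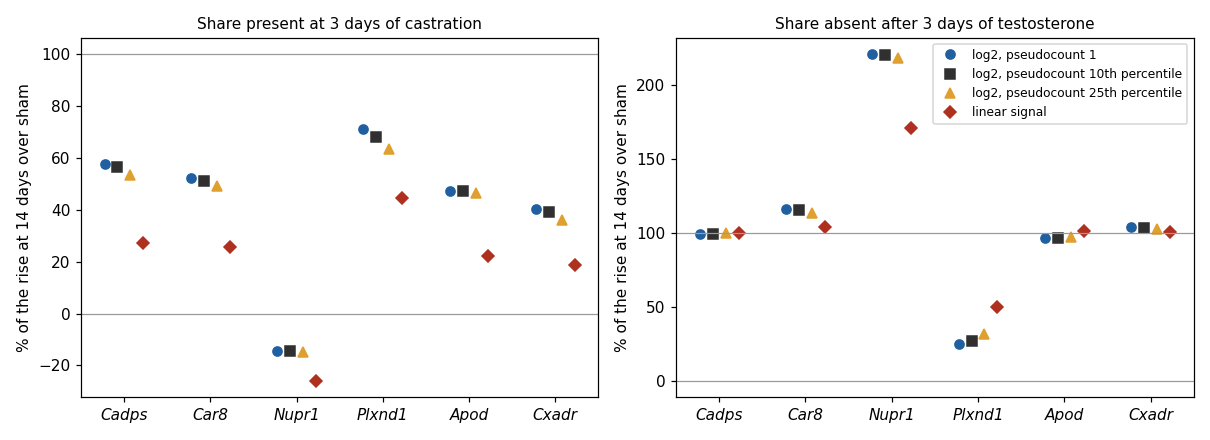
Percent of each gene's difference between castration for 14 days and sham that was present at 3 days of castration (left) and absent after 3 days of testosterone (right), on 4 scales. The 3 log2 scales lie close together and the linear signal gives lower shares at 3 days, while Plxnd1 stays at 24.8% to 50.2% in the right panel.

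The mice of a group also differed among themselves, and this spread had not been used to choose the genes. After the mean of each group was subtracted, 15 pairs of the 6 genes were compared over 20 arrays by Pearson and Spearman correlation, with two-sided permutation tests within groups and Benjamini-Hochberg adjustment over the 15 pairs. Deviations of Car8 and Nupr1 went together (r = 0.83, permutation p = 0.00018, adjusted p = 0.0027; rho = 0.77, permutation p = 0.00095, adjusted p = 0.00712). Without the 2 arrays farthest from the Car8 median, r was 0.73. Sham replicates 1 and 4 were low and 3 and 5 high for both genes, and replicate 5 of the 3-day group was the lowest of its group for both.

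Cadps and Cxadr also varied together (r = 0.65, permutation p = 0.00093, adjusted p = 0.00697; rho = 0.69, permutation p = 5e-04, adjusted p = 0.00712). Without the 2 farthest arrays r was 0.58. Cadps with Apod had r = 0.57 and Apod with Cxadr r = 0.56, both with a permutation adjusted p of 0.0299. Their values were 0.46 and 0.50 without the 2 farthest arrays, with rho = 0.57 and 0.69 (permutation adjusted p = 0.042 and 0.0145).

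Plxnd1 went the other way from Car8 (r = -0.60, permutation adjusted p = 0.0329; rho = -0.62, permutation adjusted p = 0.0388) and from Nupr1 (r = -0.62, permutation adjusted p = 0.0302; rho = -0.49, permutation adjusted p = 0.128). Without the 2 farthest arrays these were -0.50 and -0.49. Both pairs include the sham arrays, where Plxnd1 measured only 15.2 to 33.6, close to the pseudocount. Its deviations there may be largely noise of a dim signal, and the pairs were not tested without the sham group. These correlations are thus not read as a link of Plxnd1 with either gene. In all, 6 of the 15 pairs passed by Pearson correlation, 4 positive and 2 negative, and 5 by Spearman correlation. Pairs of other genes were not compared. The share of all gene pairs that would pass is thus unknown, and the count is not read as particular to these genes. Without the 4 arrays of high Gapdh ratio 3 pairs passed, those among Car8, Nupr1 and Plxnd1, while Cadps with Cxadr had r = 0.59 and a permutation adjusted p of 0.144. Without sham replicate 1 only 2 pairs passed, and without sham replicate 4 or 5 only 3. With each array left out in turn, Car8 with Nupr1 and Cadps with Cxadr passed in all 20 runs. Apod passed with Cxadr in 18 and with Cadps in 16, and Plxnd1 with Nupr1 in 12 and with Car8 in 11.

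**Figure D4:**
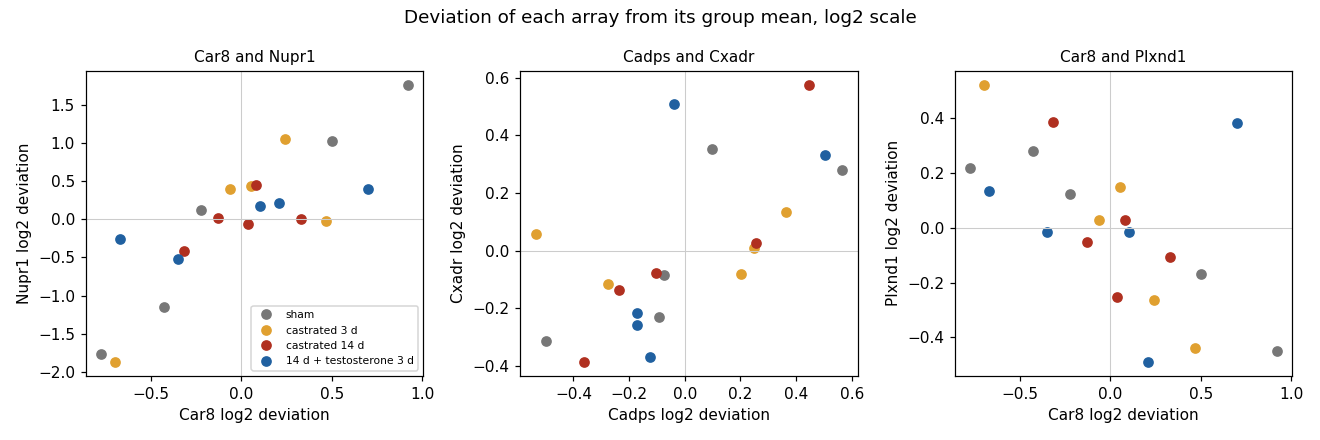
Log2 deviation of each array from the mean of its group for 3 pairs of genes; a point is 1 mouse, coloured by group. Car8 and Nupr1 lie along a rising line (r = 0.83), Cadps and Cxadr likewise (r = 0.65), and Car8 and Plxnd1 along a falling one (r = -0.60).

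The genes closest to each member were found by the root mean square difference of their 3 log2 changes from sham, over 4 group means and the 5372 genes tested. Igfbp3, a binding protein of insulin-like growth factors, was nearest to Cadps at 0.26, with means of 229 ± 44.4 in sham (SD, n = 5), 1019 ± 441 at 3 days, 3764 ± 865 at 14 days and 181 ± 56.6 with testosterone. Cdh13, a cadherin without a cytoplasmic tail, was the second nearest to Cadps (0.45), Car8 (0.35) and Apod (0.13). The gene nearest to Apod was 6330403K07Rik at 0.09, followed by Cdh13 and the phosphate transporter Slc34a2 (0.17).

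Car8 had the chemokine Cxcl5 as its nearest gene at 0.28, and its 14-day signal of 1433 ± 1429 (SD, n = 5) varied as much as its mean. Nearest to Cxadr were Prph, an intermediate filament of peripheral neurons and one of the nerve markers above, at 0.23, the adipocyte hormone gene Retn at 0.24 and Slc34a2 at 0.24. Plxnd1 was nearest to the tetraspanin Tspan4 at 0.39, whose means of 108 ± 38.8 in sham, 361 ± 72.1 at 3 days, 870 ± 49.5 at 14 days and 401 ± 26.8 with testosterone also stayed above sham. Nupr1 had no close neighbour, the nearest being Runx1 at 0.69, Ces1d at 0.72 and Tnfrsf11b at 0.78.

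Other genes of the members' families and pathways were taken from 7 lists with 238 genes, of which 165 were on the array and 90 were tested. They had been listed by family or known function, with earlier results of these arrays known. At 14 days of castration against sham, limma called 57 of the 90 (Benjamini-Hochberg adjusted p under 0.05 over 6913 probe sets), where 52.9% of all probe sets were called. For testosterone against 14 days it called 51, where 44.8% were called. Of all probe sets 1259 were higher and 1840 lower there, and 1827 and 1024 with arrays centred on their median. These comparisons share the 14-day arrays, so a gene high there by chance would be called in both.

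Genes of vesicle priming and regulated exocytosis, the pathway of Cadps, moved in both directions at 14 days: 5 of 19 rose and 7 fell, where 28.6% of all probe sets rose and 24.3% fell. Snap25, a fusion protein of neurons, measured 340 ± 24.8 at 14 days and 40.6 ± 33.5 in sham (SD, n = 5; log2 change 3.04, adjusted p = 0.000758). Cpe, which trims peptide hormones inside vesicles, rose by 1.48 (adjusted p = 1.07e-06), and Stxbp3, a syntaxin-binding protein, by 1.02 (adjusted p = 1.61e-08). Rab3d, a small GTPase of secretory granules, fell to 1369 ± 382 at 14 days, against 3432 ± 488 in sham (-1.36, adjusted p = 2.76e-05). With testosterone against 14 days 2 of the 19 rose and 8 fell, where 18.2% of all probe sets rose and 26.6% fell. Snap25 fell by 2.89 on the log2 scale, Cpe by 1.08 and Stxbp3 by 0.84, while Stx3, a syntaxin of apical membranes, rose by 0.84, all with an adjusted p of 0.00143 or less. The median of the list was -0.29 at 14 days and -0.32 with testosterone, against 0.01 and -0.10 for all probe sets. Snap25 is also among the nerve markers whose sum is given above.

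Of the carbonic anhydrases other than Car8, 4 were tested and 2 were called, both enzymes that hydrate carbon dioxide. Car3, abundant in fat and muscle, averaged 3809 ± 1292 at 14 days and 492 ± 259 in sham (SD, n = 5; log2 change 3.12, adjusted p = 7.24e-05). With testosterone it averaged 487 ± 222, a log2 change of -3.01 against 14 days (adjusted p = 0.000127). Car2 averaged 9237 ± 1834 at 14 days and 3778 ± 391 in sham (1.27, adjusted p = 3.22e-07), and fell to 3346 ± 601 with testosterone (-1.46 against 14 days, adjusted p = 7.92e-08). The median of the 4 was 0.55 at 14 days against sham, and -0.67 with testosterone against 14 days. The adipocyte sums given above had the same order of groups as Car3.

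Genes of calcium release from the endoplasmic reticulum, the pathway of the receptor that CAR8 binds, included 4 of 12 that rose and 5 that fell at 14 days (median 0.13). With testosterone against 14 days 2 rose and 6 fell (median -0.57). Plcg2, a phospholipase that makes inositol trisphosphate, averaged 351 ± 43.2 at 14 days and 119 ± 28.2 in sham (SD, n = 5; log2 change 1.48, adjusted p = 3.02e-07) and fell by 1.25 with testosterone (adjusted p = 3.26e-06). The calcium pump Atp2a3 rose by 0.80 at 14 days (adjusted p = 0.003) and fell by 0.83 with testosterone (adjusted p = 0.00287). Ryr1, a calcium channel of skeletal muscle, was called at 14 days (1.93, adjusted p = 0.0224), and the call ended without sham replicate 1, 4 or 5 (adjusted p = 0.0653, 0.0553 and 0.0705, the last being the highest of all alternatives). Skeletal muscle markers, 5 of 5 on the array, summed to 1111 to 14609 at 14 days and 2083 to 10855 in sham.

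Stress and amino acid genes around ATF4, a factor that induces Nupr1, mostly fell at 14 days. All 5 arrays of Nupr1 there were above 4 of the 5 sham arrays, and a link to these genes was not tested. Of 26 list genes measured above the filter, 4 rose and 15 fell, with a median of -0.62. At 3 days 1 rose and 11 fell, where 9.84% of all probe sets rose and 4.46% fell, with a median of -0.28 against 0.04 for all probe sets. Mthfd2, a mitochondrial enzyme of folate metabolism, averaged 556 ± 145 at 14 days and 3024 ± 555 in sham (SD, n = 5; log2 change -2.44, adjusted p = 4.35e-10). The amino acid transporter Slc7a5 (-2.16, adjusted p = 2.81e-10) and the tryptophanyl-tRNA synthetase Wars (-2.28, adjusted p = 7.09e-05) fell as well. Gadd45b, a growth arrest and stress gene, rose instead, to 942 ± 281 at 14 days against 84.3 ± 48.3 in sham (3.36, adjusted p = 2.3e-09).

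With testosterone against 14 days 9 of the 26 rose and 9 fell, with a median of -0.01. Mthfd2 rose by 2.31 (adjusted p = 1.09e-09), Psat1, an enzyme of serine synthesis, by 2.05 (adjusted p = 1.38e-07) and Wars by 1.63 (adjusted p = 0.00192). Gadd45b fell by 2.52 on the log2 scale (adjusted p = 1.27e-07), to 150 ± 32.4 (SD, n = 5). Its mean stayed above that of sham with testosterone, with a log2 change of 0.85 (adjusted p = 0.0075), while the arrays of these groups overlapped.

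Among 11 plexins, neuropilins, semaphorins and partners of Plxnd1, 3 rose and 2 fell at 14 days (median 0.05), and with testosterone against 14 days 1 rose and 3 fell (median -0.34). Of these calls, the rise of Sema4a ended in 3 alternatives (adjusted p up to 0.11) and the fall of Sema4f in 15 (up to 0.267). Nrp1, a co-receptor of class 3 semaphorins, averaged 610 ± 120 at 14 days and 246 ± 25.8 in sham (SD, n = 5; log2 change 1.25, adjusted p = 1.08e-06). It fell by 0.69 with testosterone (adjusted p = 0.000787), to 371 ± 57.9. Rras, a GTPase on which plexins act, rose by 0.83 at 14 days (adjusted p = 3.59e-07) and fell by 0.72 with testosterone (adjusted p = 2.78e-06). Sema4a and Sema4b fell at 14 days, by 0.62 and 0.85 on the log2 scale (adjusted p = 3.35e-05 and 0.000245). Of 2 tested probe sets of Sema4b, only 1 was called lower and the other was not called. The endothelial sums given above were likewise highest at 14 days.

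The list of lipocalins and apolipoproteins besides Apod had 7 tested genes, one of which, the membrane protein gene Bsg, belongs to neither family. Of these 2 rose and 1 fell at 14 days (median 0.25), and 2 rose and 1 fell with testosterone against 14 days (median 0.39), the risers being Apof and Bsg. Apoe, a lipid carrier made by macrophages among other cells, averaged 12008 ± 1499 at 14 days and 3652 ± 636 in sham (SD, n = 5; log2 change 1.72, adjusted p = 2.09e-08) and fell by 1.22 with testosterone (adjusted p = 2.28e-06). Apof, a plasma apolipoprotein, went the opposite way from Apod: it fell to 58.5 ± 18.8 at 14 days, against 384 ± 101 in sham (-2.48, adjusted p = 1.41e-08), and rose to 793 ± 108 with testosterone (3.53 against 14 days, adjusted p = 1.93e-10). Lcn2, an iron-scavenging lipocalin, was called higher at 14 days (1.80, adjusted p = 0.0164) by its brighter probe set and lower by another, and the first call ended without replicate 1 or 4 of the 14-day group (adjusted p = 0.0501 and 0.0514), so its direction is uncertain.

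Of the junction genes, the setting of Cxadr, 6 of 11 rose and 1 fell at 14 days (median 0.40), and 6 fell with testosterone against 14 days (median -0.57). Cldn5, a claudin of endothelial cells, averaged 419 ± 33.9 at 14 days and 101 ± 28.2 in sham (SD, n = 5; log2 change 1.96, adjusted p = 1.29e-07) and fell to 103 ± 12.3 with testosterone (-1.91 against 14 days, adjusted p = 2.47e-07). The scaffold gene Mpdz rose by 0.88 at 14 days (adjusted p = 0.000834) and the epithelial claudin Cldn7 by 0.76 (adjusted p = 4.81e-06), while Cldn8 fell by 0.55 on the log2 scale (adjusted p = 0.0123). Without the 4 arrays of high Gapdh ratio Cldn8 no longer passed (adjusted p = 0.0549, the highest of all alternatives). Cldn5 is also among the endothelial markers above. With testosterone against 14 days the claudin Cldn4 fell by 1.49 (adjusted p = 1.78e-05), to 1378 ± 573 with testosterone against 3583 ± 281 at 14 days. The polarity gene Pard3 fell by 0.74 (adjusted p = 2.73e-06) and Cldn1 by 0.73 (adjusted p = 8.27e-06).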

How the data were processed

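Linear intensities, 1 per probe set, were deposited by the authors, made with MAS5 version 5.0 per the submitters' processing notes. The trimmed mean of every array lay between 500.21 and 500.32, so the authors appear to have scaled the arrays, a step inferred from the values. Symbols came from GEO's annotation of the platform. Of 12488 probe sets, 66 controls were left out, and 10833 of the rest had 1 symbol, 396 several and 1193 none. The log2 of the signal plus 12.7 was fitted with limma 3.58.1 under R 4.3.3 (4 groups, 20 arrays, eBayes, two-sided, Benjamini-Hochberg adjustment over 6913 probe sets, threshold 0.05). The fit was tested on simulated data. A gene was represented by its tested probe set of highest mean. Genes named besides the 6 were up to 4 per list with the largest change among those called in each of 2 contrasts (a selection is given), and the 3 nearest genes per member. The members and lists were chosen with earlier results of these data known. Permutation tests used 100000 resamples. The design states 5 mice per group, and p-values measure the spread between their samples. No more than 0.368% of values were identical on any pair of arrays. The number of arrays limits the precision. Python 3.11.15 was used for the rest. Alternatives were pseudocounts of 1 and 43.2, 2 scalings, 2 filters, array weights, the compared groups alone, each array left out, the mean of a gene's probe sets, linear signals and, chosen after the data were seen, leaving out the 4 arrays with a log2 Gapdh ratio above 1.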

Additional observations from a re-analysis of the deposited data

Results flagged for a closer look

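Of the 28 sets of 5 signals (7 probe sets in 4 groups), 1 held an array far from the other 4. For the brighter Cadps probe set, replicate 5 of the testosterone group stood at 122.3, against 71.9 to 80.1 on the other 4, a gap above Dixon's critical value of 0.71 of the range. About 1 such set in 20 is flagged by chance. This array was 1 of the 4 with a high Gapdh ratio, and its part in the value was not tested. Without these 4 arrays the share of the 14-day difference of Cadps absent with testosterone was 104%, against 99.7% with them.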

How the results depend on the processing

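No paired analysis was possible because the labels number no replicates across groups. The median log2 change of the 6 genes kept its sign in 4 of 5 comparisons under every alternative. For testosterone minus sham it was -0.05, and it turned to 0.12 with arrays centred on their median and 0.14 with quantile normalization, and ran from -0.18 to 0.060 when 1 array was left out, values near 0 with no direction. Within groups, 6 of 15 pairs passed, 3 without the 4 arrays of high Gapdh ratio, and 2 to 6 with 1 array left out, with no share over other gene pairs to set beside them. Of 840 alternative values of the members' changes 16 moved by more than the SD within groups, most with another pseudocount. Centring shifted the median of all probe sets by 0.20 for testosterone minus 14 days, where the calls became 1827 higher and 1024 lower, against 1259 and 1840, and by 0.17 for testosterone minus sham, where they became 2026 higher and 1206 lower, against 1624 and 2041. The directions of the 6 genes in testosterone minus 14 days were unaffected by either scaling. The number of probe sets called in either direction moved by less than 1.5 times in each comparison, while the number called lower moved by more under centring in both testosterone comparisons. Of 1368 alternative values for list genes 25 lost their call and 0 turned.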
